A study of Mus musculus with 2 samples.

Results

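The receptors described here are the orphan and adhesion G protein-coupled receptors of sorted taste cells. They were taken by name, as every gene symbol made of Gpr and a digit or starting with Adgr in either count table, which gave 64 of 21888 listed genes. Of these, 18 carried Adgr symbols and 46 carried Gpr symbols. By GENCODE annotation, Gpr137b-ps is a transcribed pseudogene and another of the 46 is a noncoding RNA. Both are counted as receptors here. The FP table listed 47 of the 64, the CV table listed 60, and 43 stood in both. A gene missing from one table was taken as 0 there. Counts were found for 61 of the 64, and 3, among them Gpr26 and Gpr3, were listed at 0 in every barcode.

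The cells came from adult α-gustducin-GFP mice on the C57BL/6J background, in which green fluorescent protein marks cells that make α-gustducin, a G protein subunit of taste cells that Gnat3 encodes. GFP-positive cells that excluded the dead-cell dye 7-AAD were sorted from the fungiform papillae at the front of the tongue (FP) and from the circumvallate papilla at its back (CV), 1 library each. No treatment or other genotype was compared, and no source used here says how many animals each library came from. The libraries held 29 FP and 61 CV barcodes, which shared none. Kept cells had more than 500 genes and Gnat3 above 0.9 on the natural log of 1 plus counts per 10000, which left 21 FP and 32 CV cells.

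Seven-transmembrane receptors that signal through G proteins detect most hormones, odorants and tastants, and the sweet, umami and bitter receptors (Tas1r and Tas2r genes) are themselves of this kind. Orphan receptors are those named before a ligand was known, and several have since been paired with lipids or metabolites. Adhesion receptors carry a long extracellular part, which many but not all of them cut from the membrane part themselves, and many bind matrix or neighbouring cells. Some proteins with Gpr symbols sit in the Golgi, lysosome or endoplasmic reticulum and are not typical surface receptors.

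Kept cells summed to 22646953 counts in FP (193718 to 3190340 per cell, median 1141644) and 29535917 in CV (32726 to 3447628, median 543963). Mitochondrial genes made up a median of 11.1% of the counts of kept FP cells (at most 68.0%). In kept CV cells the median was 12.5% (at most 88.6%), and ribosomal RNA reached 79.0% of the counts of a cell. Levels are given as CPM, counts scaled to a common total (that of the cell or, for pooled levels, of all kept cells of a library). A receptor is called on in a cell at 50 CPM or more. All intervals are 95% intervals. Those of levels and ratios cover counting error only, and they are too narrow for it if copies made by PCR were counted. Those of shares of cells treat the cells of 1 library as independent draws. No interval covers variation between libraries. With 1 library per papilla no difference between papillae was tested. The 8 type II taste cell markers summed to a median of 21298 CPM in kept FP cells and 18364 CPM in kept CV cells. Lingual keratinocyte markers, 8 of 8 found, summed to 87.2 to 524 CPM in kept FP cells and to 0 to 917 CPM in kept CV cells, with a median of 0 in CV.

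Promoters of 3 receptors are shown first, 2 for a broad pattern and 1 for a pattern seen in the kept cells of a single library. Adgrb2 and Adgrl1 were on in more kept cells than any other of the 64 receptors, and Adgrf4 had counts in kept cells of CV and in none of FP. Each stretch runs from 250 bases before to 50 bases after a RefSeq start on build GRCm38.p6, written 5′ to 3′ on the gene's strand, with CG dinucleotides in capitals. Adgrb2 lies at chr4:129984620-129984919 on the plus strand, Adgrl1 at chr8:83899848-83900147 on the plus strand, and Adgrf4 at chr17:42692235-42692534 on the minus strand.
Adgrb2: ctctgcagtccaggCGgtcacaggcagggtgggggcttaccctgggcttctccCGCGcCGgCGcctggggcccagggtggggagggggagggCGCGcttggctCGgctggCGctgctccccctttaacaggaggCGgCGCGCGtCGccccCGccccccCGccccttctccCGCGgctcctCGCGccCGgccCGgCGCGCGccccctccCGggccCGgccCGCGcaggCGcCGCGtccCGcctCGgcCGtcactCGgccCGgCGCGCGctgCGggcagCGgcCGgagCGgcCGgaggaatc
Adgrl1: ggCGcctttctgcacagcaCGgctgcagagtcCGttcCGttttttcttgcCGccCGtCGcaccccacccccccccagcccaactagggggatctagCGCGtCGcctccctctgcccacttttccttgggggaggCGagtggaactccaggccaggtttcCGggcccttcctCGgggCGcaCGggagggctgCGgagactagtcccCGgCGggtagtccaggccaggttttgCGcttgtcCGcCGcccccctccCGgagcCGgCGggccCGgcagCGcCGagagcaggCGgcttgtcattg
Adgrf4: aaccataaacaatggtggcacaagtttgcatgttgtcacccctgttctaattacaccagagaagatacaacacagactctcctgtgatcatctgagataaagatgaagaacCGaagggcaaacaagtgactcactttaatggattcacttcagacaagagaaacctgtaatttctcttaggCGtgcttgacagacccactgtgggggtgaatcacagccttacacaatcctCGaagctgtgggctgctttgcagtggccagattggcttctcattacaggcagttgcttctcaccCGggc
These 300 bases held 45 CG dinucleotides for Adgrb2, 28 for Adgrl1 and 4 for Adgrf4. Of all promoters in the RefSeq table, 98.1% had fewer than Adgrb2, 85.8% fewer than Adgrl1 and 31.4% fewer than Adgrf4. The low number of Adgrf4 was not shared by all receptors on in kept cells of CV alone. Among them, Adgrg2 held 30 CG dinucleotides, more than Adgrl1, and Adgrv1 held 14. Promoters were found for 45 of the 64 receptors, with a median of 17 CG dinucleotides when the richest start of each gene was taken. The median was 22 for the 14 matched receptors on in at least 3 kept cells, 9.5 for the 8 on in 1 or 2 and 11 for the 23 on in none. The same classes of all listed genes gave medians of 23, 16 and 6. The GC box GGGCGG, searched on both strands, was found in the Adgrb2 and Adgrl1 stretches and in at least 1 promoter of 25 of the 45 receptors (55.6%), against 53.8% of all listed genes with a promoter. Counted by start, 35.7% of all starts held it. The octamer ATGCAAAT, bound by POU factors and searched on both strands, was found in 0 of the 45, in 1.91% of all listed genes with a promoter and in 1.74% of all starts.

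Receptors were found in most kept cells, but few were shared by many cells. In FP, 24 of 64 receptors (37.5%) were on in at least 1 kept cell, against 48% of all listed genes. In CV, 22 of 64 (34.4%) were on, against 53.9% of all listed genes. The 2 libraries had 16 of these in common (25% of the 64, against 41.1% of all listed genes). A further 8 were on in FP alone and 6 in CV alone, beside 1508 and 2806 of all listed genes. Of the resulting 30 receptors, 4 were on in at least 10 kept cells, 18 in at least 3, 5 in exactly 2 and 7 in exactly 1. Among all listed genes, 16.7% were on in at least 10 kept cells, against 6.25% of the receptors. A further 4 receptors reached 50 CPM outside the kept cells alone, and the remaining 30 did so in no barcode.

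A kept FP cell had a median of 3 receptors on (0 to 6) and a kept CV cell a median of 2 (0 to 8). No receptor was on in 2 FP cells and 10 CV cells. The number rose with the depth of the cell, with Spearman correlations across cells of 0.59 in 21 FP cells and 0.71 in 32 CV cells, given as descriptions. Among cells with at least 500000 counts the medians were 4 in 16 FP cells and 3 in 16 CV cells. Among shallower cells they were 1 in 5 FP cells and 0 in 16 CV cells. The CV library held more of the shallow cells, and the part of depth in its lower numbers was not tested.

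**Figure D1:**
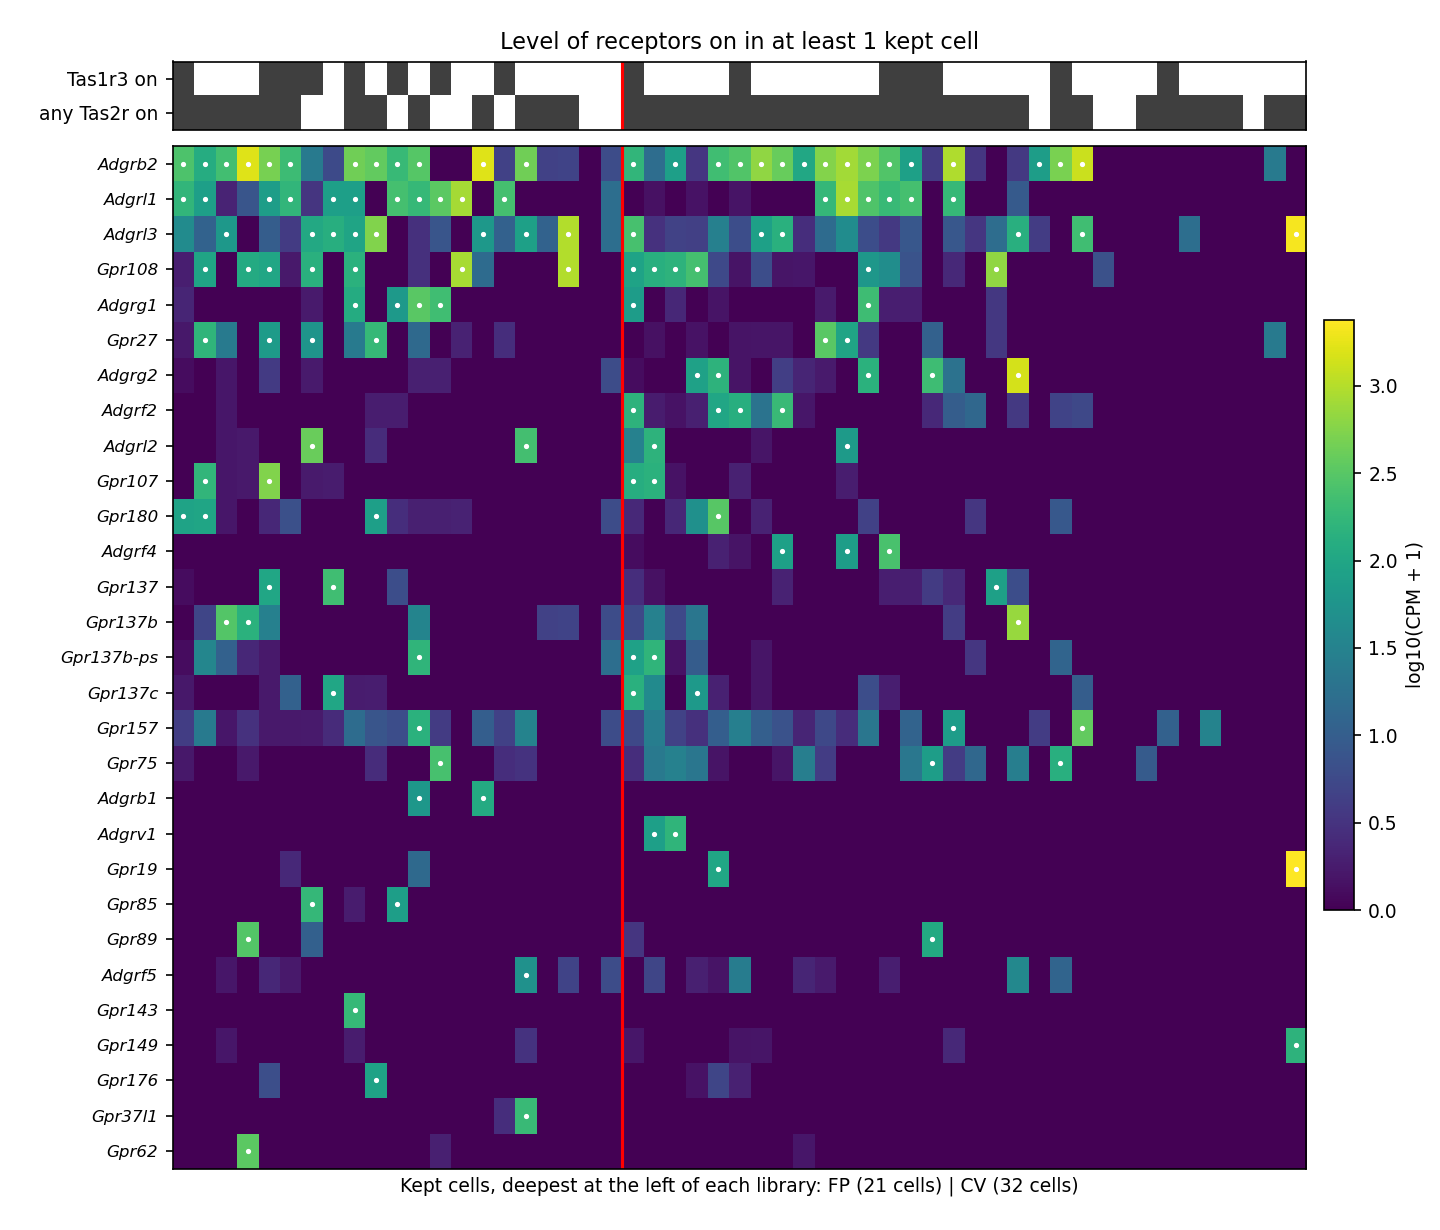
Level of 29 of the 30 receptors on in at least 1 kept cell (rows), as log10(CPM + 1), in 21 FP and 32 CV kept cells (columns, deepest cell at the left of each library, red line between the libraries). White dots mark 50 CPM or more, and the bars on top show cells with Tas1r3 or any Tas2r on. Adgrb2 fills 12 FP and 16 CV cells, while most other rows have 1 to 6 dots, and the shallow CV cells at the right are nearly empty.

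The adhesion family held the receptors on in most cells. Of 18 adhesion receptors, 11 were on in at least 1 kept cell, 7 in FP and 9 in CV, where 60.8% of all listed genes were on in either library, 48% in FP and 53.9% in CV. The share of the 18 in either library thus lay near that of all genes. At least 1 of them was on in 18 of 21 FP cells (85.7%, exact interval 63.7 to 97.0). In CV this held for 21 of 32 cells (65.6%, 46.8 to 81.4). Of the FP cells, 9 had 2 adhesion receptors on and the fullest had 4, and the same figures held for the CV cells.

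Adgrb2, also called BAI2, belongs to the brain-specific angiogenesis inhibitor group and is best known from neurons. It lies on chromosome 4 from 129984870 to 130022633 (mm10, plus strand), with no other annotated gene over it. The lowest, median and highest values over cells were 0, 189 and 1646 CPM in FP and 0, 49.5 and 1263 CPM in CV. The next highest values were 1621 CPM in FP and 950 CPM in CV, so no single cell made up the level. In all, 12 of 21 FP cells (57.1%) had it on, as did 16 of 32 CV cells (50%). Between 0 and 50 CPM lay 6 cells in each library, and 3 FP and 10 CV cells were at 0. Values of the 2 papillae overlapped over almost their whole range. Pooled over kept cells, the FP level was 339 CPM (331 to 346) and the CV level 261 CPM (255 to 266), a ratio of 1.30 (1.26 to 1.34). The log2 ratio on CPM + 10 was 0.37. It was 0.08 when the counts of the cell with most Adgrb2 counts in each library were left out. Library totals were kept in that setting, and in CV that cell stood at 650 CPM, below the highest level. After thinning to 71770 counts per cell the log2 ratio was 0.01. In thinned cells Adgrb2 stayed on in 12 of 21 FP cells, and in 16 of 26 for CV, against 12 of 21 and 16 of 32 unthinned. Per kilobase of exon the pooled level of all kept cells came to 52.2 CPM (FP) and 40.2 CPM (CV). Both were the highest among the receptors with an annotated exon length, which Gpr52 lacked.

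The same receptors were read in 7 FP barcodes with 55341 to 176924 CPM of keratinocyte markers, none of them kept. No CV barcode reached 10000 CPM of these markers, so CV has no such set. Their median depth was 1679949 counts. Adgrb2 had counts in 4 of these 7 but at most 2.81 CPM. Adgrl1 reached 3.26 CPM there and Adgrl3 4.69 CPM, all under the 50 CPM that called a cell on. The part of free RNA in low counts was not tested.

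The latrophilins Adgrl1, Adgrl2 and Adgrl3 are adhesion receptors that bind teneurins and FLRT proteins on neighbouring cells, and Adgrl1 is the receptor of a spider venom toxin. At least 1 of the 3 was on in 17 of the 21 FP cells and 13 of the 32 CV cells. They were mostly on in different cells: 13 FP and 12 CV cells had exactly 1 of them, 4 FP cells and 1 CV cell had 2, and none had all 3.

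Adgrl1, on chromosome 8 from 83900105 to 83941954, ran from 0 through a median of 74.7 to 839 CPM in FP cells. In CV cells it ran from 0 through a median of 0 to 871 CPM. The call level was reached in 11 of 21 FP cells (52.4%, 29.8 to 74.3). In CV it was reached in 6 of 32 cells (18.8%, 7.21 to 36.4). The middle FP cell thus lay above the call level and the middle CV cell had no count, although the highest cells of the 2 libraries were alike. After thinning it was on in 11 of 21 FP and 6 of 26 CV cells. Pooled levels were 130 CPM (125 to 134) and 74.4 CPM (71.3 to 77.5), a ratio of 1.74 (1.65 to 1.84). The log2 ratio of 0.73 rose to 1.10 without the counts of the cell with most of them in each library. Over all barcodes it was 0.29. Annotated gene models on the other strand overlap Adgrl1, and no source used here states the strand of counting.

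Adgrl3, on chromosome 5 from 81020138 to 81825133, was found at low levels in most cells. Counts were seen in 17 of the 21 FP cells and 22 of the 32 CV cells, with medians of 10.7 and 3.48 CPM, and was on in 8 FP and 6 CV cells. The highest FP cells had 978 and 542 CPM. The highest CV value, 2170 CPM, came from 71 counts in the shallowest kept CV cell, of 32726 counts. Below it the CV values fell to 244 CPM. Its pooled levels, 74.3 CPM for FP and 54.5 CPM for CV, differed by a log2 ratio of 0.39, which was -0.08 over all barcodes, so no direction is given. Adgrl2 was on in 2 cells of each library, at 399 and 230 CPM in FP and 152 and 68.8 CPM in CV.

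Other adhesion receptors were on in fewer cells. Adgrg1, also called GPR56, binds collagen and is known from cortical development. It was on in 4 FP cells, at 325, 220, 119 and 65.7 CPM, and in 2 CV cells, at 210 and 71.9 CPM. No count was seen in 15 of the 21 FP cells and 24 of the 32 CV cells, so it was high in few cells rather than low in many. Each of the 4 FP cells also had Adgrl1 on. Adgrb1, a relative of Adgrb2 that takes part in the uptake of apoptotic cells, was on in 2 FP cells at 115 and 60.1 CPM and was not listed in CV. Adgrf5, known from lung epithelium, was on in 1 FP cell, by 24 counts.

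**Figure D2:**
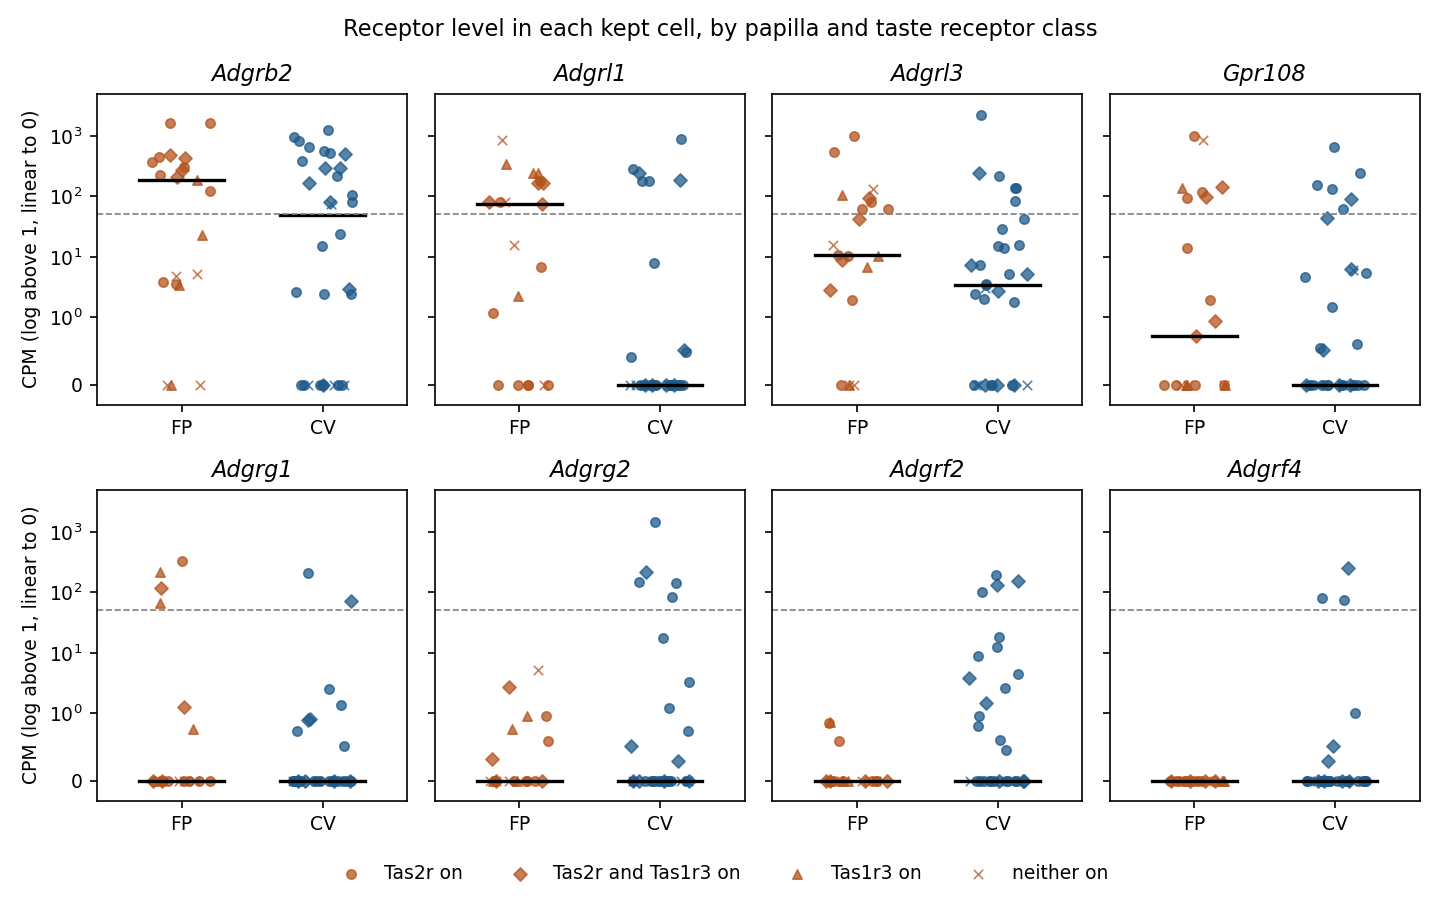
CPM of 8 receptors in each kept cell (points) of FP (21 cells) and CV (32 cells), on a scale that is logarithmic above 1 CPM. Black lines are medians, the dashed line is 50 CPM, and the symbol shows which taste receptors are on in the cell. Adgrb2 and Adgrl1 medians are 189 and 74.7 CPM in FP and 49.5 and 0 CPM in CV, and Adgrg2, Adgrf2 and Adgrf4 pass 50 CPM in CV cells alone.

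Of 9 adhesion receptors with at least 10 CPM in a library, 4 stood 2-fold or more above FP in CV, and the reverse was seen for none. Over all genes at that level, 21% stood so in CV and 17% in FP. Adgrg2, also called GPR64 and known from the efferent ducts and epididymis, was on in 5 CV cells, at 1425, 213, 150, 141 and 84.6 CPM. The cell at 1425 CPM had 38.4% mitochondrial counts. The highest FP cell had 5.16 CPM of Adgrg2, so the on cells of CV lay above every FP cell. The pooled CV level was 45.3 CPM (42.9 to 47.8) beside 0.442 CPM (0.212 to 0.812) for FP, a 103-fold ratio (55.6 to 214). The log2 ratio of FP over CV on CPM + 10 was -2.40. Without the counts of the cell with most of them in each library it was -1.85. In thinned cells it was on in 5 of 26 CV and 0 of 21 FP cells.

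Adgrf2 and Adgrf4 are neighbours on chromosome 17, from 42708936 to 42742179 and from 42656891 to 42692284, both on the minus strand. Adgrf2, also called GPR111, was on in 4 CV cells, at 191, 152, 130 and 99.4 CPM, and had smaller counts in 11 more. Its highest FP cell had 0.876 CPM from 1 count. The pooled CV level of 46.4 CPM rests on 1370 counts, and the pooled FP level of 0.132 CPM (0.0273 to 0.387) on 3. Adgrf4, also called GPR115, was on in 3 CV cells, at 255, 81.2 and 73.8 CPM, and had 0 counts in the kept FP cells. Taken against a floor of 3 pooled counts for FP, the CV level over kept cells was at least 134-fold higher (exact lower limit 109). Of the 32 CV cells, 5 had exactly 1 of the 2 genes on and 1 had both. Without the counts of the cell with most of them in each library, the log2 ratio was -1.94 for Adgrf2. For Adgrf2 in CV that was the cell at 152 CPM, with 524 counts. In the same setting the log2 ratio of Adgrf4 was -0.86, which no longer reached 2-fold. Outside the kept cells, 1 CV barcode of 46257 counts had Adgrf4 at 994 CPM, and 1 FP barcode, among the 7 rich in keratinocyte markers, had it at 22.3 CPM. Over all barcodes Adgrf4 had a pooled level of 2.61 CPM for FP beside 15.2 CPM for CV, and its log2 ratio of -0.9967 did not reach 2-fold either.

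Adgrv1, the very large Usher syndrome protein of hair cell stereocilia, was the fourth. It was on in 2 CV cells, at 161 and 80.1 CPM, had no count in the other 30 CV cells and was not listed in FP. Its pooled CV level was 18.8 CPM (17.3 to 20.5), at least 142-fold higher by the same floor (exact lower limit 115).

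Receptors of the Golgi, lysosome and endoplasmic reticulum formed the next group. Of 8 such genes, 7 were on in both libraries, as were 41.1% of all listed genes, and at least 1 was on in 11 of 21 FP cells (52.4%, 29.8 to 74.3). In CV this held for 9 of 32 cells (28.1%, 13.7 to 46.7). All 7 had at least 10 CPM in a library. On the FP side 2 stood 2-fold or more apart and on the CV side 1, beside 17% and 21% of all genes at that level. The median log2 ratio was 0.67, that of Gpr107, against -0.05 for all such genes. The sign of Gpr107 was kept under 7 of 9 alternative settings, and 1 cell held 74.0% of its FP counts. The signs of Gpr108, Gpr137b, Gpr137c and Gpr180 also turned under some of them, while that of Gpr137 was kept under all 9.

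Gpr108, a Golgi protein known as a host factor for adeno-associated virus entry, was on in 7 FP and 6 CV cells. The FP cells had 93.6 to 985 CPM with a second cell at 852 CPM, and the CV cells had 60.6 to 657 CPM. The median over all kept cells was 0.719 CPM in FP and 0 in CV, so most cells were far under the call level. Pooled levels were 83.1 CPM (79.4 to 86.9) and 64.1 CPM (61.2 to 67.0). The log2 ratio of 0.33 became -0.69 over all barcodes, where 1 CV barcode below the Gnat3 limit brings in 1951 Gpr108 counts. Gpr107, a Golgi relative of Gpr108, was on in 2 cells of each library, at 552 and 165 CPM in FP and 141 and 126 CPM in CV. In each library both of its on cells also had Gpr108 on.

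Gpr180 was on in 3 FP cells, at 95.9, 90.6 and 79.7 CPM, and in 1 CV cell at 318 CPM, which held 84.0% of its CV counts. Its pooled levels, 24.8 CPM for FP (22.8 to 26.9) and 24.9 CPM for CV (23.2 to 26.8), lay within each other's counting intervals. The lysosomal Gpr137 group acts on the growth regulator mTORC1. Gpr137 had 18.8 CPM in FP, with 2 cells on, and 1.66 CPM in CV, with 1 cell on. Gpr137c had 6.36 and 24.7 CPM, from 1 and 2 cells on, and its log2 ratio of -1.09 became 0.08 in thinned cells. Gpr137b had 35.5 and 14.1 CPM and its near copy, the pseudogene Gpr137b-ps, 11.1 and 24.4 CPM. No source used here says how reads matching both were assigned, so the split between these last genes is uncertain. Gpr89, a Golgi pH regulator, was on in 1 cell of each library, at 293 CPM in FP and 112 CPM in CV.

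Overlapping genes limit some of these values. Gpr137 overlaps Bad, Gpr137c overlaps Txndc16, Gpr89 overlaps Pdzk1 and Gja5, and Gpr75 and Gpr62 overlap Asb3 and Pcbp4 on mm10. Annotated gene models on the other strand also overlap Adgrg2, Adgrf2, Adgrv1, Adgrl2, Adgrl3, Gpr107 and Gpr174, among others. Without a stated strand of counting, reads of overlapping partners cannot be told apart.

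**Figure D3:**
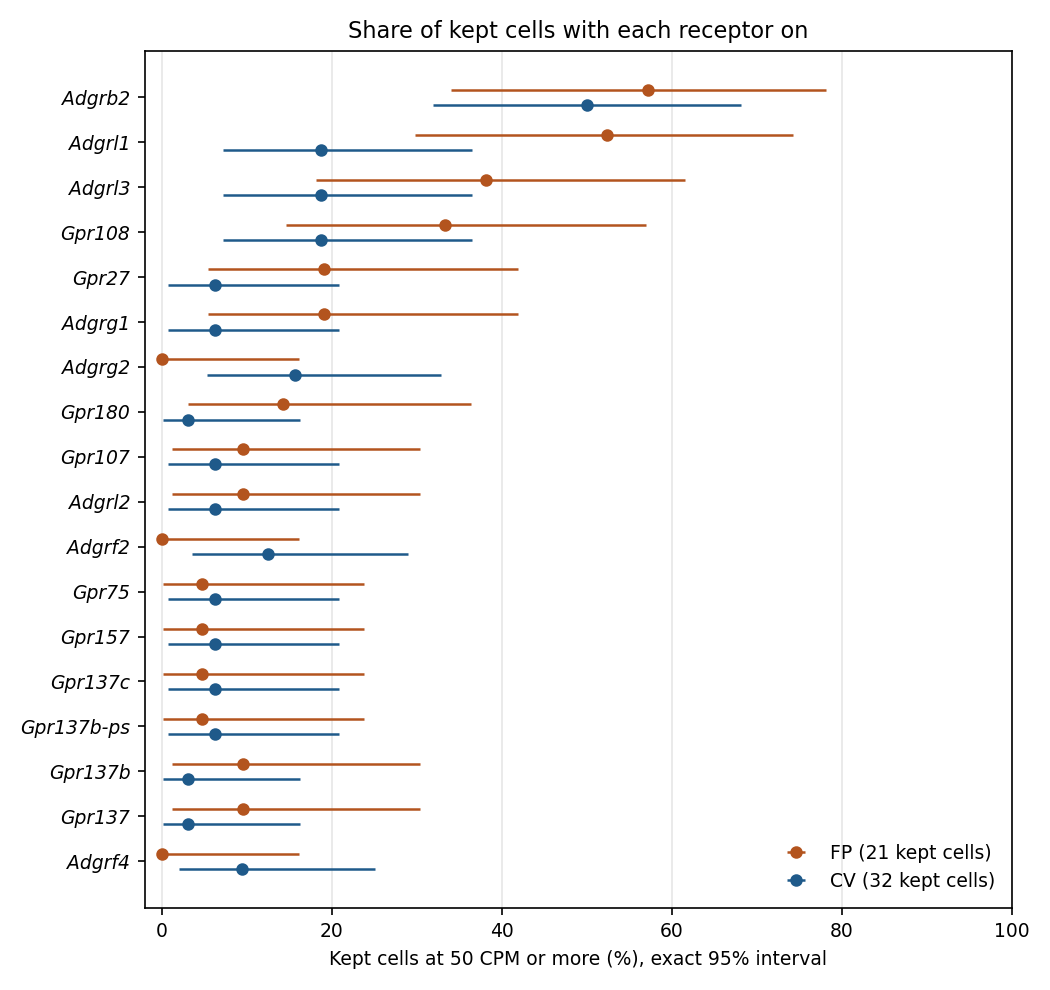
Percent of kept cells at 50 CPM or more, with exact 95% intervals, for the 18 receptors on in at least 3 kept cells (rows), in FP (21 cells) and CV (32 cells). Adgrb2 is on in 57.1% and 50% of cells, Adgrl1 in 52.4% and 18.8%, and the intervals of the 2 libraries overlap for each of the 18.

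Among the other orphan receptors, 10 of 26 were on in at least 1 kept cell, the pseudogene Gpr137b-ps included. By library, 8 were on in FP and 6 in CV. Of all listed genes, 60.8% were on in either library, 48% in FP and 53.9% in CV. At least 1 of the 26 was on in 9 of the 21 FP cells and 10 of the 32 CV cells. Gpr27, Gpr85 and Gpr173 form the SREB group, receptors highly conserved between species and known from brain. Gpr27 was on in 4 FP cells, at 182, 161, 71.3 and 55.6 CPM, and in 2 CV cells, at 328 and 91.5 CPM. It had no count in 11 of 21 FP and 21 of 32 CV cells. The pooled level was 32.9 CPM for FP (30.6 to 35.4) and 19.3 CPM for CV (17.7 to 20.9), and the highest CV cell held 77.9% of the CV counts. Gpr85 was on in 2 FP cells, at 177 and 78.0 CPM, and was not listed in CV. Gpr173 stayed under 16 CPM in every kept cell.

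Gpr157, a Gq-coupled receptor of primary cilia, was seen in many cells at low levels. Counts were seen in 17 of the 21 FP cells and 18 of the 32 CV cells, and it was on in 1 FP cell (144 CPM) and 2 CV cells (366 and 72.0 CPM). Pooled levels were 11.9 CPM (10.5 to 13.4) and 12.5 CPM (11.3 to 13.9). Counts of Gpr157 were also found in 2 of the 7 keratinocyte-rich barcodes. Gpr75, a receptor linked to body weight, had 11.5 and 11.7 CPM, but 97.3% of its FP counts came from 1 cell. Gpr62, known from oligodendrocytes, had 21.5 CPM in FP, of which 1 cell held 99.8%, and 1 count in all CV cells. Its ratio of 636 has a counting interval with a lower bound of 114. Without the counts of the cell with most of them in each library, its log2 ratio was 0.01.

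The 5 Gpr receptors listed as lipid and metabolite sensors stayed under the call level in kept cells. None of Gpr174, Gpr183, Gpr35, Gpr55 and Gpr84 was on in a kept cell, where 60.8% of all listed genes were on in either library. For these 5 receptors the exact upper limit allows up to 16.1% of FP cells and 10.9% of CV cells. Their highest cell had 46.7 CPM, a CV cell with Gpr35. Gpr174, a receptor of lysophosphatidylserine, had counts in 17 of 21 FP and 24 of 32 CV cells, but at most 10.3 and 30.6 CPM. Counts of it were also found in 5 of the 7 keratinocyte-rich barcodes, at up to 3.26 CPM in FP barcodes outside the kept cells, and CV barcodes outside the kept cells reached 44.8 CPM. Gpr37l1, a glial receptor, was on in 1 FP cell at 191 CPM, and Gpr37 reached 7.28 CPM at most. The cilium receptor Gpr161 and the Gs-coupled Gpr12 stayed under 1.5 CPM.

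**Figure D4:**
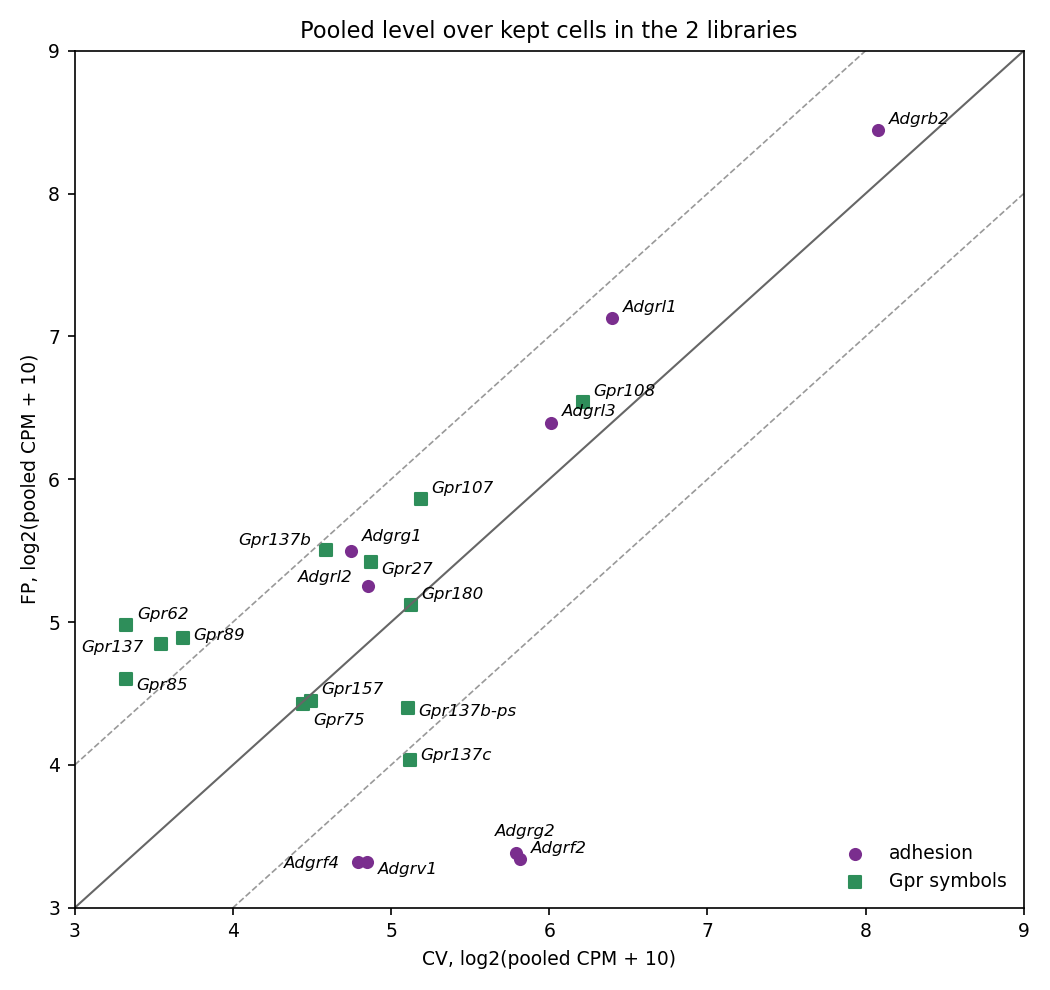
Pooled level over kept cells, as log2(CPM + 10), in CV (x axis) and FP (y axis) for the 22 receptors that had 10 CPM or more in a library. The solid line is equality and the dashed lines are 2-fold. Gpr62, Gpr137, Gpr85 and Gpr89 lie above the upper dashed line, and Adgrf2, Adgrg2, Adgrv1, Adgrf4 and Gpr137c below the lower one.

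Counted over all receptors, the papillae differed about as often as for other genes. Of the 22 receptors with at least 10 CPM in either library, 4 (18.2%) had an FP level 2-fold or more above CV, against 17% of all 10918 such genes. Another 5 (22.7%) had a CV level that far above FP, against 21% of all such genes, and 13 lay within 2-fold. The median log2 ratio of the 22 was 0.38, on the FP side, against -0.05 for all such genes. The 4 on the FP side were Gpr62 (1.65), Gpr137 (1.30), Gpr85 (1.28) and Gpr89, each on in 1 or 2 FP cells. The 5 on the CV side were Adgrf2 (-2.48), Adgrg2 (-2.40), Adgrv1 (-1.53), Adgrf4 (-1.47) and Gpr137c (-1.09). In 1 alternative, each receptor's counts in the cell with most of them were left out in each library. Adgrf2 and Adgrg2 then remained 2-fold higher in CV, and none of the 4 remained so in FP. In that setting Gpr27 (1.12) and Adgrl1 (1.10) passed 2-fold on the FP side.

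The taste receptors of the same cells were then compared with the receptors. At the same call level, 13 of 21 FP cells had a Tas2r and 8 had Tas1r3, the subunit common to sweet and umami receptors, with 4 cells having both. In CV the counts were 28 and 7 of 32, and all 7 Tas1r3 cells also had a Tas2r. Each count below is to be read against these shares, and none was tested.

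Adgrb2 lay mostly in cells with bitter receptors in FP, while in CV its share of such cells was near that of all cells. In FP, 11 of its 12 on cells had a Tas2r (91.7%, against 61.9% of all FP cells), and 5 had Tas1r3. In CV, 15 of its 16 on cells had a Tas2r (93.8%, against 87.5%). It was on in 15 of the 28 CV cells with a Tas2r and in 5 of the 7 with Tas1r3. Its on cells had a median of 2 Tas2r genes on against 0 in the other FP cells, and 7 against 2 in CV. The on cells were also deeper, with median totals of 1311066 against 579496 counts in FP and 1271298 against 122826 in CV, and the part of depth was not tested. Among FP cells with at least 500000 counts, Adgrb2 was on in 10 of 10 cells with a Tas2r and in 1 of 4 cells with Tas1r3 and no Tas2r. Among such CV cells it was on in 13 of 16, all of which had a Tas2r.

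Adgrl1 in FP had a different distribution. It was on in 7 of the 8 FP cells with Tas1r3 and in 6 of the 13 with a Tas2r. Among deep FP cells it was on in 3 of 4 cells with Tas1r3 and no Tas2r and in 2 of 6 with a Tas2r and no Tas1r3. In CV, 2 of 7 Tas1r3 cells had it on, and all 6 of its on cells had a Tas2r. Adgrl3 was on in 2 of the 8 FP cells with Tas1r3 and in 6 of the 13 with a Tas2r. All 5 Adgrg2 cells, all 4 Adgrf2 cells and all 3 Adgrf4 cells of CV had a Tas2r, with a median of 8, 7.5 and 4 Tas2r genes on, beside 4.5 in all kept CV cells. These on cells were deeper, with median totals of 1155577, 1932138.5 and 1191726 counts, beside 543963 in all kept CV cells. All 16 CV cells with at least 500000 counts had a Tas2r, and the part of depth was not tested.

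Some receptors were on in the same cells. Adgrb2 and Adgrl1 were both on in 7 FP cells, of 12 and 11 on cells, and all 6 CV cells with Adgrl1 also had Adgrb2. All 4 CV cells with Adgrf2 and all 3 with Adgrf4 had Adgrb2 on, beside 16 of the 32 kept CV cells, while 2 of the 5 Adgrg2 cells did. These pairs share the depth of the cell, whose Spearman correlation with Adgrb2 was 0.45 in FP and 0.57 in CV.

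The genes most like the 4 broadest receptors were ranked by the mean of their Spearman correlations over 21 FP and 32 CV cells, among 9290 genes. For Adgrb2 the highest were Suox (0.66 in FP and 0.71 in CV), Sap18, Mkl2, Nupr1 and Eml2. For Adgrl1 they were Acaa2 (0.66 and 0.60), Suco, Eif4h, Bcl2 and Ovol3. For Adgrl3 they were Thap7 (0.70 and 0.46), Tmem181a, Cyb5rl, Rer1 and Cnot4. For Gpr108 they were Uqcc1 (0.65 and 0.74), Plpp6, Cyc1, Tug1 and Uqcrc1. These are the highest of many correlations over few and sparse cells that share depth, and they are given as a description.

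Related receptors and partners were taken from lists of other symbols. Of 13 adhesion receptors under other names, Celsr1 and Celsr2, the planar polarity cadherins, were listed, at 30.4 and 40.05 CPM (FP) and at 11.7 and 38.3 CPM (CV). Gprc5b, an orphan of class C, was on in 6 FP cells and 12 CV cells, with pooled levels of 138 and 176 CPM. Of 26 nutrient and hormone receptors, 17 were listed and 7 had at least 10 CPM in a library. The CV level was 2-fold or more above FP for 5 of the 7, and the reverse was seen for none, beside 21% and 17% of all genes at that level. Casr, the calcium-sensing receptor, was among them, with 0 counts in FP and a pooled level of 79.3 CPM over the 32 kept CV cells, of which 3 had it on. The others were Insr and P2ry2, on in 3 CV cells each, and Sucnr1 and Oxtr, on in 1 CV cell each. No alternative setting was run for these receptors. Of the arrestins and receptor kinases, which end receptor signalling, Grk4 was on in 11 FP cells and 21 CV cells, with pooled levels of 65.7 and 399 CPM. Arrb2, a β-arrestin, had 26.5 CPM in FP and 0 counts in CV.

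Outside the kept cells, some receptors stood above their level in every kept cell. Adgrg6, an adhesion receptor known from Schwann cells and also called GPR126, had 523 CPM in 1 FP barcode and at most 0.686 CPM in kept cells. Gpr155, a lysosomal protein, had 154 CPM in another FP barcode and at most 2.44 CPM in kept cells. Adgrg1 reached 1188 CPM in a further FP barcode, against at most 325 CPM in a kept cell. All 3 barcodes were among the 7 with the most keratinocyte markers, at 78977, 62341 and 176924 CPM in the order given. Their Gnat3 levels were 14.3, 10.0 and 3.26 CPM. Adgrl2 was on in 2 more of the 7, at 207 and 64.5 CPM, which lay below its highest kept FP cell.

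**Figure D5:**
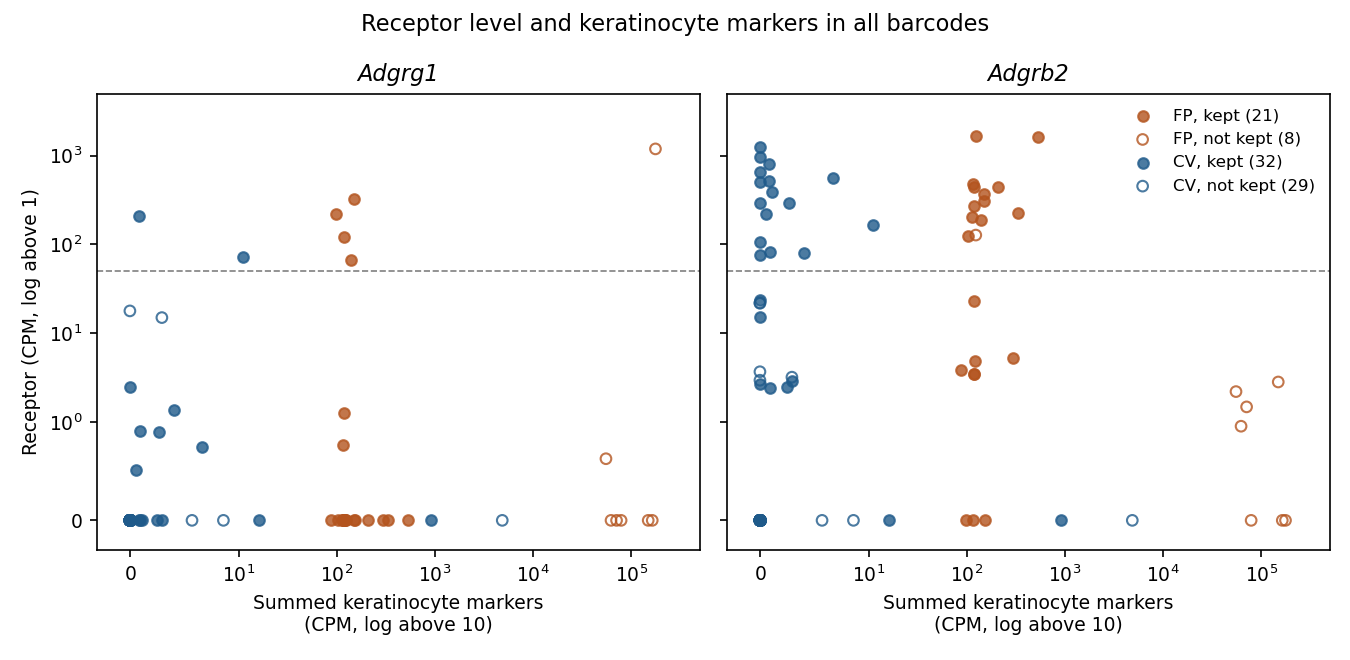
CPM of Adgrg1 (left) and Adgrb2 (right) against the summed CPM of 8 keratinocyte markers in all 29 FP and 61 CV barcodes, with filled points for kept cells and open points for the rest, on axes that are logarithmic above 1 and 10 CPM. The dashed line is 50 CPM. The highest Adgrg1 point, 1188 CPM, lies at the far right, and Adgrb2 is at most 2.81 CPM in the 7 barcodes there.

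A deep CV barcode with sweet receptor genes fell below the Gnat3 limit. It had 4088415 counts, Gnat3 at 14.9 CPM, Tas1r2 at 2211 CPM, Tas1r3 at 632 CPM and Tas1r1 at 168 CPM. It also had 1 Tas2r on. The receptors on in it included Gpr108 at 477 CPM, Gpr107 at 143 CPM, Adgrl1 at 83.7 CPM and Adgrl3 at 67.0 CPM. Adgrb2 was not on there. A single barcode carries these values, and whether it held 1 cell was not tested.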

How the data were processed

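The 2 single-cell libraries, 1 from FP and 1 from CV, were captured on the BD Rhapsody system and amplified by TAS-Seq, per the series design. Each deposited table gives unnormalized counts, whole numbers by gene and by cell barcode. The submitters' processing notes name build mm10, Bowtie2 2.3.4.1, cutadapt 2.10 and Seurat 2.3.4. Barcode selection with DropletUtils and distribution-based error correction are named in the series design. No source used here says whether molecular barcodes were collapsed.

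CPM, exact Poisson, Clopper-Pearson and conditional binomial intervals, and ratios on log2(CPM + 10) were computed from these counts with Python 3.11.15, numpy 2.4.6, pandas 2.3.3 and scipy 1.17.1. Ratio calls were tested on simulated Poisson draws around profiles shared by all cells of a library. The likeness ranking was tested with a planted noisy copy of Adgrb2. Neither simulation modelled receptors whose counts come from 1 or a few cells. No test between papillae was made, doublets were not called, and mitochondrial and ribosomal RNA limits were an alternative. The cell filter in the series design is ambiguous, and the natural logarithm was assumed.

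Receptors were named when on in at least 3 kept cells or at 20 CPM pooled, and role list members when on in 1 barcode. Gpr85, Gpr12, Gpr37, Gpr161, Gpr173 and the lipid sensors under 50 CPM were named after their values were seen. The members and lists were chosen with earlier results of these data known. Gene positions came from GENCODE M21 on mm10 and promoters from RefSeq on GRCm38.p6. A few receptors enter the counts but are not reported here. Alternatives were other cell filters, call levels, pseudocounts, filters on low values, scalings and thinning. In another, each gene's counts in the cell with most of them were left out, and library totals were kept.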

Additional observations from a re-analysis of the deposited data

Results flagged for a closer look

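The values below were found in barcodes outside the kept cells, which the comparisons between papillae do not use, and lay above the call level of 50 CPM. Adgrg6 reached 523 CPM in 1 FP barcode, beside at most 0.686 CPM in kept FP cells. Gpr155 reached 154 CPM in 1 FP barcode, beside at most 2.09 CPM in kept FP cells.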

How the results depend on the processing

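The number of receptors on moved most with the call level: at 1 count or more it was 45 in FP and 56 in CV, against 24 and 22 at 50 CPM, and under the other alternatives it stayed within 1.5 times. The median log2 ratio of 0.38 turned to -0.0067 with no filter on low values, fell to 0.0068 with no Gnat3 limit and was 0.68 in thinned cells. The receptors 2-fold higher in FP, 4 in all, became 0 with a filter of 50 CPM and 7 in thinned cells. They became 2 when each receptor's counts in the cell with most of them were left out. The 5 higher in CV became 0 with that filter and 2 when those counts were left out. The filter left 4 receptors to compare. The ratio of Gpr137c turned from -1.09 to 0.0822 in thinned cells.

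Of 19 named receptors, 11 kept the sign of their log2 ratio under each of 9 alternatives. Leaving out barcodes whose number adjoins that of a deeper barcode, an alternative chosen after seeing the data that removed 4 kept CV cells, left the counts of receptors on at 24 and 22. No paired analysis was possible because each papilla has 1 library. With 21 and 32 cells, intervals of shares are wide, and in the shallowest kept cells a few counts reach 50 CPM.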
